A study of Homo sapiens with 9 samples.

Results

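Host long noncoding RNAs are transcripts that carry small RNA genes inside their own exons or introns. They were taken here as every gene whose symbol is SNHG (small nucleolar RNA host gene) followed by digits, MIR...HG (microRNA host gene) or GAS5, which gave 114 of the 60671 genes counted. Of these, 85 were MIR...HG genes and 29 were SNHG genes or GAS5. Enough reads for a test were counted for 63 of them, made up of 37 microRNA hosts and 26 snoRNA hosts. Of the other 51, 41 had some counts, with at most 24 in any 1 library, and 10 had none in any library.

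The 9 libraries hold total RNA of the immortalised human chondrocyte line C28/I2 and are labelled CA2 shRNA, Scrambled and Control, 3 of each. CA2 shRNA cells were transduced with a short hairpin RNA aimed at carbonic anhydrase 2 (CA2), the enzyme that interconverts carbon dioxide and bicarbonate. The series title names the metabolic homeostasis of articular chondrocytes as the subject. What construct the Scrambled cells received, and whether Control cells were transduced at all, is left unsaid in the labels. Nothing says that replicates were separate cultures, so p-values measure the spread between these libraries, which may be technical. All libraries come from 1 cell line.

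Small nucleolar RNAs (snoRNAs) guide the chemical modification of ribosomal RNA, and in human cells most are cut from introns of host transcripts after splicing. MicroRNAs are cut from hairpins in exons or introns of their hosts by Drosha and Dicer and then guide Argonaute proteins to target messages through a short seed. Spliced snoRNA host transcripts are often not translated into a useful protein, and many are removed by nonsense-mediated decay, so their steady level reflects both synthesis and decay.

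The microRNAs of the hosts on which the results turn are shown first, because the seed says which hosts feed the same microRNA family. RefSeq sequences matched 116 of the 140 microRNA genes that overlap a host, 115 of them at the same hairpin coordinates as RefSeq on GRCh38.p14. Each mature sequence is written from its 5′ end, with the seed (bases 2 to 8) in capitals. The first group shares the let-7 seed and comes from several hosts.
let-7i-5p, in MIRLET7IHG: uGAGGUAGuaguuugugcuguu
let-7b-5p, in MIRLET7BHG: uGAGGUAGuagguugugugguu
let-7a-5p, in MIRLET7BHG, MIRLET7A1HG and MIR100HG: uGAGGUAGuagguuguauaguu
let-7f-5p, in MIRLET7A1HG: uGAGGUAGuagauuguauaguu
let-7d-5p, in MIRLET7A1HG: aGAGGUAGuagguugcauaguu
The second group comes from the other microRNA hosts that were lower in CA2 shRNA libraries, and no 2 of its seeds are alike.
miR-1915-3p, in MIR1915HG: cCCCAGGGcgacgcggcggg
miR-4435, in MIR4435-2HG: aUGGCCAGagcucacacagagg
miR-600, in MIR600HG: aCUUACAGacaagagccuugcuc
miR-924, in MIR924HG: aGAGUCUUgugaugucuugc
The third is the pair in MIR222HG, the only host whose CA2 shRNA libraries all lay above the 6 others, and it shares a seed.
miR-221-3p, in MIR222HG: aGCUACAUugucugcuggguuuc
miR-222-3p, in MIR222HG: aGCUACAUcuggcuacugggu
The last 4 come from MIR23AHG and MIR22HG, whose levels varied within groups.
miR-23a-3p, in MIR23AHG: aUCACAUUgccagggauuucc
miR-27a-3p, in MIR23AHG: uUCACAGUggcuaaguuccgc
miR-24-3p, in MIR23AHG: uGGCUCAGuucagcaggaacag
miR-22-3p, in MIR22HG: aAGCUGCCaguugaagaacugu
Over the tested hosts with a matched sequence there were 105 mature microRNAs with 90 different seeds. The let-7 seed GAGGUAG was the one found in most hosts, 5 in all, of which MIR4458HG is the remaining one, through miR-4458. These are sequences of the genes in the hosts, and mature microRNAs were not measured.

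Library totals ran from 16994368 to 34261244 counts, and the 114 hosts together took 0.0966% to 0.120% of them. CA2, the targeted gene, had 28, 15 and 30 counts in CA2 shRNA libraries, against 41, 53 and 61 in Scrambled and 55, 41 and 66 in Control libraries. Its log2 fold change was -0.77 (SE 0.23, adjusted p = 0.0276, edgeR) against Scrambled and -0.86 (SE 0.23, adjusted p = 0.0159, edgeR) against Control. Of 12 chondrocyte markers, 7 passed the filter on low counts. SOX9, the cartilage transcription factor, gave most of their summed CPM (read counts scaled to library size with TMM factors), COL2A1 and ACAN averaged at most 1.90 and 1.05 CPM in any group, and COL9A1 had no counts. Of 12 markers of other cells, 7 passed the filter, none passed the test, and they summed to 9.04 to 12.5 CPM, with PTPRC, EPCAM, KRT5, DES and ADIPOQ below the filter. The chondrocyte markers summed to 120 to 123 CPM in CA2 shRNA libraries, against 108 to 113 in Scrambled and 101 to 116 in Control libraries. In each CA2 shRNA comparison 1 of the 7, SOX9, was higher (log2 fold change 0.20 in both) and 1, the matrix protein COMP, was lower (-0.86 against Scrambled and -0.83 against Control), and the median of the 7 was -0.16 and -0.21 in the same order. The part of these markers in the results was not tested. Fewer cells of a type and less RNA per cell cannot be told apart in such bulk libraries. Control 3 and Scrambled 2 stood apart in the nuclear RNA NEAT1, with 159 and 233 CPM, against 312.5 to 680 CPM in the other 4 libraries of those groups. The CA2 shRNA libraries had 527, 266 and 367 CPM, so CA2 shRNA 2 lay near Scrambled 2. Fits that leave out Control 3 and Scrambled 2 together keep CA2 shRNA 2. Results that rest on Control 3 and Scrambled 2 are given with and without them.

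Among the hosts, the snoRNA hosts were the more abundant per length. Their median was 4.69 RPKM (CPM per kilobase of annotated exon, the deposited measure). A mean of 1 RPKM over the 9 libraries was reached by 22 of 26. The microRNA hosts had a median of 0.690 RPKM, and 16 of 37 reached 1 RPKM. SNHG6, the host of SNORD87, was the highest of all at a mean of 33.5 RPKM, followed by SNHG29 at 25.1, SNHG19 at 21.7 and SNHG1, the host of a cluster of box C/D snoRNAs, at 15.2 RPKM. MIRLET7BHG was the highest microRNA host at 9.27 RPKM, followed by MIR1915HG at 6.52 and MIR22HG at 3.77 RPKM. SNHG14, with 122609 exonic bases, had a mean of 0.701 RPKM although its group means were 70.8 to 94.6 CPM. Annotated exons cover the whole gene in MIR23AHG (19049 bases) and SNHG1 (3970 bases). In CA2 shRNA libraries MIR23AHG averaged 41.2 CPM and 2.16 RPKM, and SNHG6 averaged 43.3 CPM and 34.6 RPKM. The order by RPKM, and the difference between the 2 families in it, thus depend on annotated exon length, whose part was not tested. Exon overlap with other genes touches some of these levels, since 29.3% of SNHG6 exonic bases lie opposite MCMDC2 and 23% of those of SNHG9 belong to its own snoRNA SNORA78. The sources used here do not give the strand setting of the counting.

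**Figure D1:**
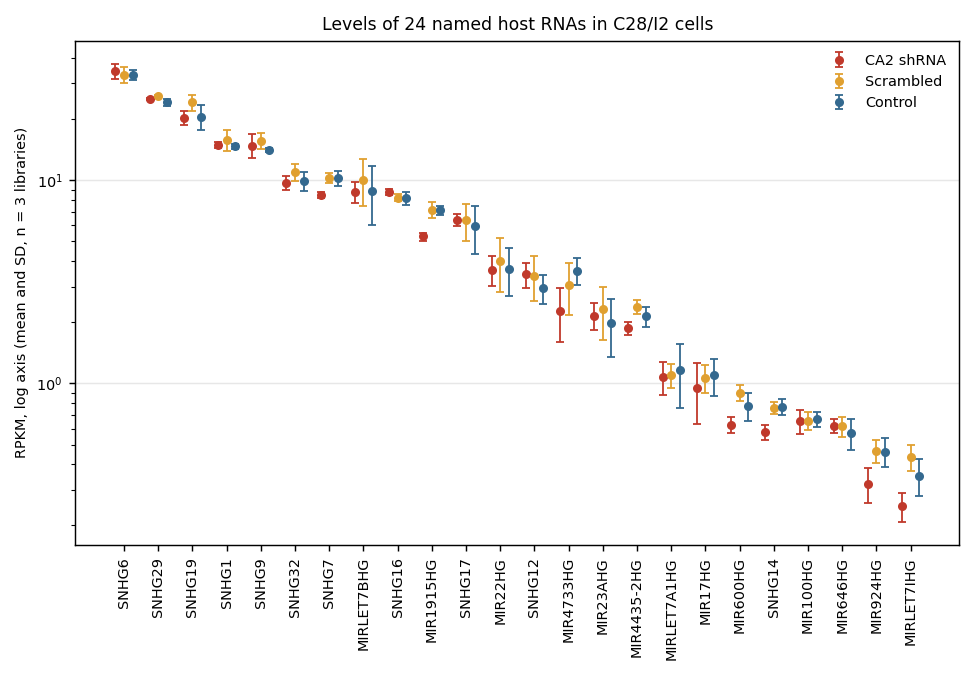
Mean RPKM (log axis) with SD over 3 libraries for 24 named host RNAs, in order of their mean over 9 libraries, with CA2 shRNA, Scrambled and Control side by side. SNHG6 is highest at 33.5 RPKM and MIRLET7IHG lowest of those shown, and the CA2 shRNA points of all 7 hosts that passed against Scrambled lie below those of both other groups.

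Of the most abundant snoRNA hosts, none of SNHG6, SNHG29, SNHG19 and SNHG1 passed the test in any comparison. SNHG29, which carries SNORD49A, SNORD49B and SNORD65, had 183, 183 and 178 CPM in CA2 shRNA libraries, against 182, 189 and 186 CPM in Scrambled libraries and 165, 180 and 177 CPM in Control libraries. All 9 values lie close together and the groups overlap in both CA2 shRNA comparisons. Its log2 fold change was -0.03 (95% interval -0.14 to 0.08) against Scrambled and 0.06 (-0.05 to 0.17) against Control. GAS5, a growth arrest transcript whose RNA also binds the glucocorticoid receptor, had 50.3, 47.4 and 47.5 CPM in CA2 shRNA libraries, against 51.6, 43.5 and 53.3 CPM in Scrambled libraries and 46.9, 45.9 and 42.5 CPM in Control libraries. The CA2 shRNA values lay inside the Scrambled range and above all Control values, and the log2 fold changes were -0.03 (95% interval -0.20 to 0.13) and 0.10 (-0.06 to 0.27). SNHG1 gave intervals of -0.24 to 0.08 and -0.14 to 0.18, SNHG16, the host of SNORD1A, gave -0.05 to 0.25 and -0.05 to 0.26, and SNHG6 gave -0.11 to 0.25 and -0.11 to 0.24 on the log2 scale, against Scrambled and against Control in that order.

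Start sites were searched for a sequence feature. Messages of the translation machinery begin with a C followed by a run of pyrimidines, the 5′ terminal oligopyrimidine tract, and snoRNA host genes are known to share it. A window of 10 bases before and 20 bases from the RefSeq start was searched for CTTTT and CTTTC on the transcribed strand, 2 motifs chosen after the windows had been read. At least 1 of them was present in 8 of 22 snoRNA hosts (36.4%) and 3 of 33 microRNA hosts (9.09%) with a window, against 1639 of all 22114 windows (7.41%). On the other strand (AAAAG and GAAAG) the shares were 4.55%, 3.03% and 5.62% in the same order. Because the motifs were picked after reading, a higher share in the hosts may be built in by that choice. The other strand, on which no motif was picked, is not a fair control for it. Windows of 4 snoRNA hosts are given first, those whose match begins at or next to the RefSeq start. In the other snoRNA hosts with a match it begins before the start, as in SNHG8 and SNHG29, or further on, as in SNHG4 and SNHG16. Windows of 3 hosts that were lower in CA2 shRNA libraries and had no match follow. All are written 5′ to 3′ on GRCh38.p14 with matches in capitals.
SNHG5, chr6:85678714-85678743, minus strand: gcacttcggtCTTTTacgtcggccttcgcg
SNHG19, chr16:2155339-2155368, minus strand: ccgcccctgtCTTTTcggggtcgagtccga
SNHG32, chr6:31834906-31834935, plus strand: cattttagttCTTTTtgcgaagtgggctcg
SNHG12, chr1:28581854-28581883, minus strand: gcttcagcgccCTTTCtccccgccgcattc
SNHG7, chr9:136728165-136728194, minus strand: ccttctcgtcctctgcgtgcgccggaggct
MIR1915HG, chr10:21497241-21497270, minus strand: gcgacgagccattgaggaccagggtcgcgc
MIRLET7IHG, chr12:62602733-62602762, plus strand: cgccgcctctgtcccggatgtaagatggcg
None of the 11 hosts with a match passed the test in either CA2 shRNA comparison, and their log2 fold changes ran from -0.49 to 0.10 against Scrambled and from -0.26 to 0.23 against Control. Of the 44 without one, 7 were lower against Scrambled and 3 against Control. Over all genes 8.88% and 8.26% were lower in these comparisons, so 0 of 11 is near the background, and the difference between hosts with and without a match was not tested. A RefSeq start need not be the start used in these cells, and a match or its absence in this window is a description only. A match could lie before the start, as in SNHG29 and MIRLET7A1HG. Pyrimidine runs with neither motif were not counted, as in SNHG7. Hosts with and without a match are therefore not hosts with and without the tract.

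CA2 shRNA against Scrambled asks which hosts differ from cells labelled with a scrambled construct. No host passed at adjusted p under 0.05 in the higher direction and 7 of 63 did in the lower direction (edgeR quasi-likelihood test), which is 11.1%. Over all 19812 genes tested, 8.02% were higher and 8.88% lower, 16.9% in all, so the share lower among the hosts is near that of all genes. Without Scrambled 3 only SNHG14 and MIR1915HG were lower, 2 of 64 hosts tested (3.12%), where 5.90% of all genes were lower in the same fit. Without CA2 shRNA 1 the count was 3 of 65 (4.62%, against 5.44% of all genes), and without CA2 shRNA 2 it was 4 of 65 (6.15%, against 6.64%). Without Control 3 it rose to 9 of 64 (14.1%, against 8.42%), with SNHG4 and SNHG26 added. With all libraries, the hosts lower were 2 of 26 snoRNA hosts, SNHG14 and SNHG7, and 5 of 37 microRNA hosts, MIR1915HG, MIR4435-2HG, MIRLET7IHG, MIR600HG and MIR924HG. At an unadjusted p under 0.05 there were 2 hosts higher and 10 lower (15.9%). Of all 19812 genes, 2765 were higher and 2981 lower (15%) at that limit, so the share lower is near the background. The median log2 fold change of the hosts was -0.15, against -0.03 over all genes, and 45 of 63 (71.4%) were negative, against 53.8% of all genes. The 3041 other long noncoding genes tested had a median of -0.22 and 73.8% negative, with 0.230% called higher and 6.22% lower.

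CA2 shRNA against Control sets the same libraries against cells without a scrambled label. It gave no host higher and 3 lower, SNHG14, SNHG7 and MIR1915HG, which is 4.76% of 63, where 14.7% of all genes passed, 6.41% higher and 8.26% lower. Without Control 3 the count was 5 of 64 (7.81%, against 6.21% of all genes lower in that fit), with MIR924HG and SNHG26 added. At an unadjusted p under 0.05 there were 1 host higher and 7 lower (11.1%), where 2463 of all 19812 genes were higher and 2774 (14%) lower. The median log2 fold change of the hosts was -0.02, against -0.00478 over all genes, and that of the other long noncoding genes was -0.09. The 3 hosts were lower in both comparisons, which share the CA2 shRNA libraries, where 6.98% of all genes were lower in both and 5.49% higher in both.

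**Figure D2:**
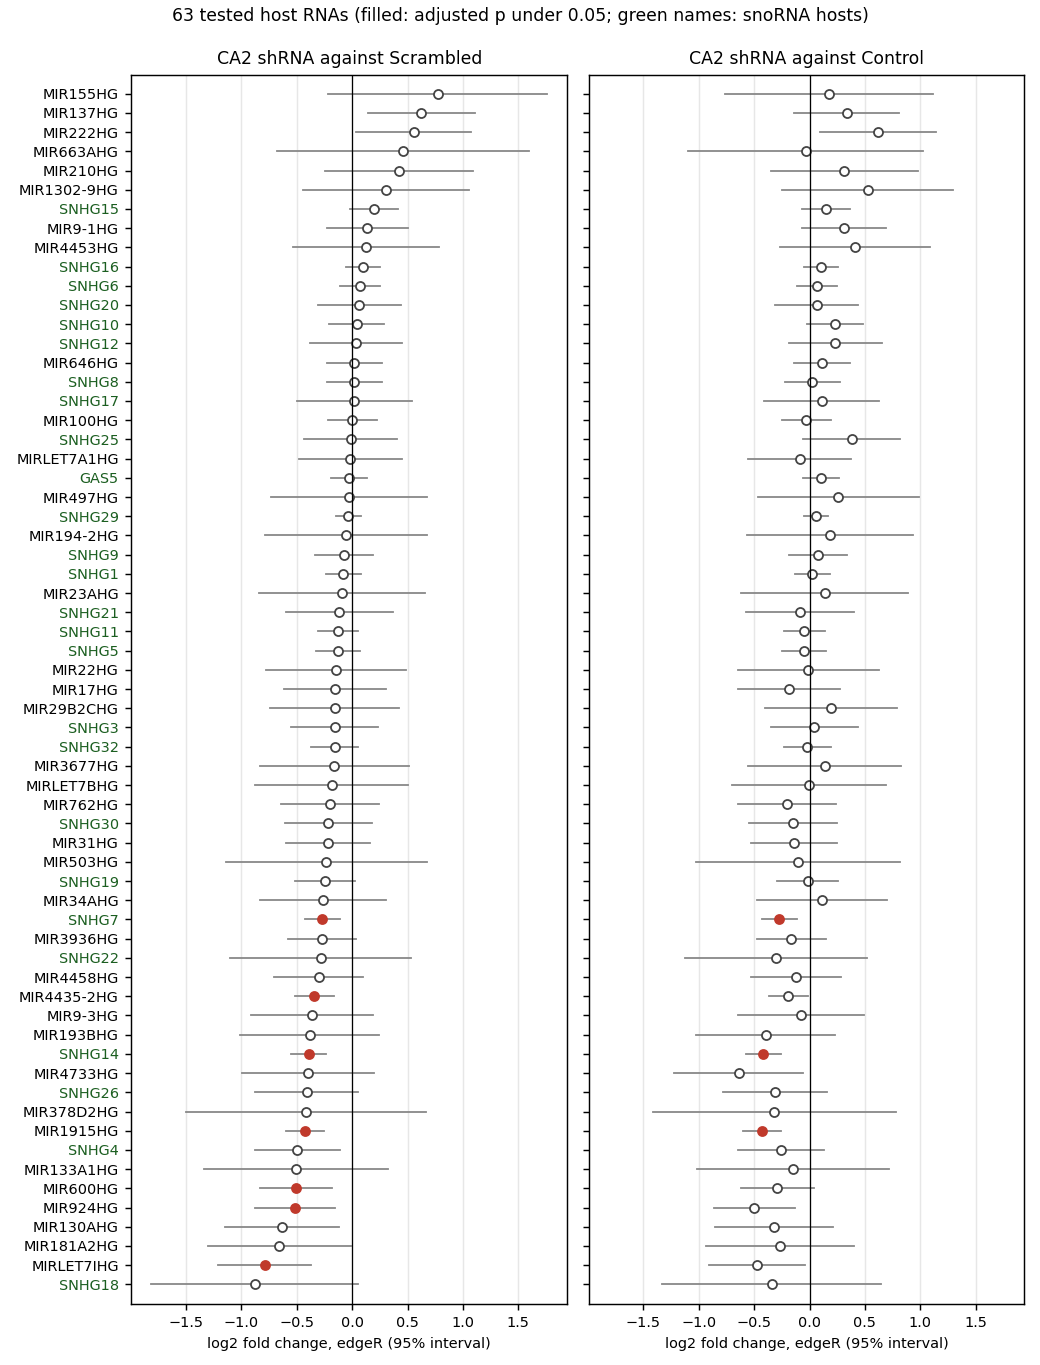
log2 fold change with 95% interval (horizontal axis) of the 63 tested hosts (rows, in order of the change against Scrambled), for CA2 shRNA against Scrambled on the left and against Control on the right. Filled points passed at adjusted p under 0.05, 7 on the left and 3 on the right, all of them to the left of 0, and green names mark snoRNA hosts.

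SNHG14 (ENSG00000224078, chr15:24978583-25420336, plus strand of GRCh38) was the host with the smallest adjusted p in both comparisons. It is an imprinted transcript that carries the SNORD116 and SNORD115 clusters, and in neurons it runs on as an antisense to UBE3A. It had 75.1, 65.8 and 71.4 CPM in CA2 shRNA libraries, against 85.2, 98.5 and 95 CPM in Scrambled libraries and 104, 88.5 and 91.5 CPM in Control libraries. Every CA2 shRNA library was below all 6 others. The log2 fold change was -0.39 (SE 0.07, adjusted p = 0.00124, edgeR) against Scrambled and -0.42 (SE 0.07, adjusted p = 0.000733, edgeR) against Control. It passed under all 18 alternatives of processing in both comparisons, with adjusted p up to 0.0111 and 0.00708. Other genes share 11.5% of its exonic bases, among them SNRPN on the same strand and UBE3A on the other.

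MIR1915HG (ENSG00000204682, chr10:21492658-21497260, minus strand) carries miR-1915 in an intron. It had 20.9, 19.6 and 20 CPM in CA2 shRNA libraries, against 29.6, 26.4 and 25.4 CPM in Scrambled libraries and 27.9, 27.9 and 25.6 CPM in Control libraries. The highest CA2 shRNA value was below the lowest of the 6 others, and no other gene shares its exons. Its log2 fold change was -0.43 (SE 0.08, adjusted p = 0.00128, edgeR) in each comparison, and it passed under all 18 alternatives in both. Its small RNA gene, MIR1915, was counted with 3, 6 and 5 reads in CA2 shRNA libraries, 16, 5 and 6 in Scrambled and 6, 4 and 5 in Control libraries, which is too few for a test.

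SNHG7 (ENSG00000233016, chr9:136721366-136728184, minus strand), the host of SNORA17A and SNORA17B, had 41.9, 43.4 and 39.3 CPM in CA2 shRNA libraries, against 52.6, 46.9 and 50.7 CPM in Scrambled libraries and 54.4, 50.2 and 46.0 CPM in Control libraries. All CA2 shRNA values were below the 6 others. The log2 fold change was -0.27 (SE 0.08, adjusted p = 0.0184, edgeR) against Scrambled and -0.27 (SE 0.08, adjusted p = 0.0194, edgeR) against Control. Leaving out Scrambled 3 (adjusted p = 0.0746), CA2 shRNA 1 (0.0843) or CA2 shRNA 3 (0.145) ended the edgeR call against Scrambled. Leaving out Control 1 (adjusted p = 0.102), Control 2 (0.0538), CA2 shRNA 1 (0.0917) or CA2 shRNA 3 (0.158) ended the one against Control. Of its exonic bases 30.3% lie opposite DIPK1B, so reads of both genes may be mixed if the counting did not use strand.

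MIR4435-2HG (ENSG00000172965, chr2:111006015-111523376, minus strand) is the human counterpart of mouse Morrbid, which sets the lifespan of short-lived myeloid cells in mice. It had 59.9, 64.3 and 68.5 CPM in CA2 shRNA libraries, against 73.6, 85.2 and 85.4 CPM in Scrambled libraries and 82.8, 68.7 and 68.8 CPM in Control libraries. The CA2 shRNA libraries were below all 6 others, by a narrow margin to Control. Its log2 fold change was -0.34 (SE 0.08, adjusted p = 0.00898, edgeR) against Scrambled and -0.19 (SE 0.08, adjusted p = 0.151, edgeR) against Control. The call against Scrambled was lost without Scrambled 3 (adjusted p = 0.0553) or CA2 shRNA 1 (0.0759), by edgeR. CYTOR, a near-identical copy elsewhere on the same chromosome, averaged 35.2 ± 2.26 CPM in CA2 shRNA libraries, against 43.4 ± 3.6 in Scrambled and 40.2 ± 5.47 in Control libraries (SD, n = 3 each), with a log2 fold change of -0.30 (adjusted p = 0.0356, edgeR) against Scrambled and -0.20 (adjusted p = 0.199, edgeR) against Control. Reads of the pair could have been split between them or dropped, so both values are uncertain.

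MIRLET7IHG (ENSG00000257354, chr12:62602752-62622213, plus strand) had the largest fall among the hosts that passed. It had 2.30, 1.81 and 2.38 CPM in CA2 shRNA libraries, against 3.86, 3.17 and 4.30 CPM in Scrambled libraries and 3.74, 2.88 and 2.55 CPM in Control libraries. The CA2 shRNA libraries were below all 6 others. The log2 fold change was -0.79 (SE 0.20, adjusted p = 0.0107, edgeR) against Scrambled and -0.47 (SE 0.21, adjusted p = 0.146, edgeR) against Control. The call was lost without Scrambled 3 (adjusted p = 0.0702) or CA2 shRNA 2 (0.0572), by edgeR. The other hosts of let-7 genes did not pass: the log2 fold changes against Scrambled and against Control were -0.19 (95% interval -0.88 to 0.50) and -0.01 (-0.70 to 0.69) for MIRLET7BHG, -0.01 (-0.48 to 0.45) and -0.09 (-0.55 to 0.37) for MIRLET7A1HG, and 0.00 (-0.22 to 0.22) and -0.03 (-0.25 to 0.19) for MIR100HG. The differences between these hosts were not tested, and the intervals of MIRLET7BHG and MIRLET7A1HG include changes as large as that of MIRLET7IHG against Control. Per length, MIRLET7BHG averaged 8.81 ± 1.04 RPKM in CA2 shRNA, 10.1 ± 2.59 in Scrambled and 8.89 ± 2.85 in Control libraries, and MIRLET7IHG averaged 0.248 ± 0.0394, 0.436 ± 0.0645 and 0.350 ± 0.0725 RPKM in the same order (SD, n = 3 each).

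MIR600HG and MIR924HG passed against Scrambled and not against Control, a difference that was not tested, and passed under the fewest alternatives of the 7 hosts. MIR600HG (ENSG00000236901, chr9:123109494-123115477, minus strand) had 3.74, 3.50 and 4.02 CPM in CA2 shRNA libraries, against 4.8, 5.76 and 5.51 CPM in Scrambled libraries and 5.42, 4.49 and 4.02 CPM in Control libraries. The CA2 shRNA values were below all Scrambled values and reached the lowest Control value. Its log2 fold change was -0.51 (SE 0.16, adjusted p = 0.0313, edgeR) against Scrambled and -0.29 (SE 0.16, adjusted p = 0.264, edgeR) against Control, and it passed against Scrambled under 11 of 18 alternatives. Leaving out Scrambled 2 (adjusted p = 0.0884), Scrambled 3 (0.105) or any 1 of the CA2 shRNA libraries (0.101, 0.0984 and 0.0664) ended the call by edgeR, as did DESeq2 (0.0578). MIR924HG (ENSG00000267374, chr18:39206917-39800322, minus strand) had 3.79, 3.08 and 4.42 CPM in CA2 shRNA libraries, against 4.75, 6.17 and 5.41 CPM in Scrambled libraries and 6.05, 5.85 and 4.43 CPM in Control libraries. All CA2 shRNA values were below the 6 others. Its log2 fold change was -0.52 (SE 0.17, adjusted p = 0.0486, edgeR) against Scrambled and -0.50 (SE 0.17, adjusted p = 0.0634, edgeR) against Control. It passed under 6 of 18 alternatives against Scrambled and 5 of 18 against Control. Its edgeR call against Scrambled ended when Control 2 (adjusted p = 0.0616), Scrambled 2 (0.148), Scrambled 3 (0.118), CA2 shRNA 1 (0.135) or CA2 shRNA 2 (0.184) was left out. Without Control 3 (0.0256) or Scrambled 1 (0.0387) it passed against Control, by edgeR.

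**Figure D3:**
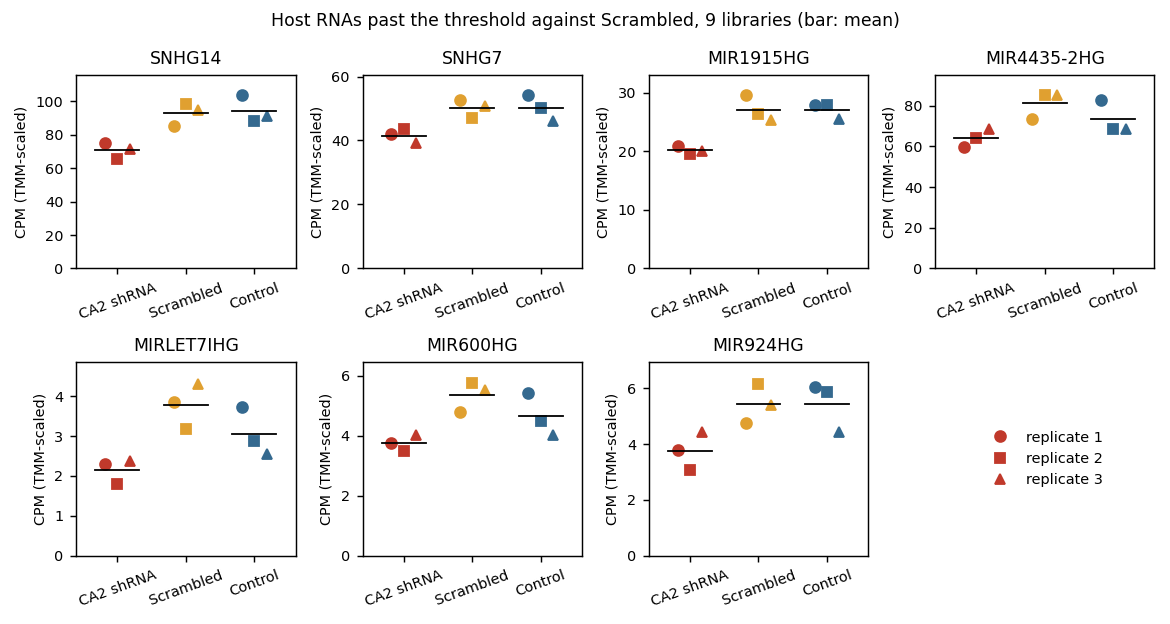
TMM-scaled CPM (vertical axis from 0) in each of the 9 libraries for the 7 hosts that passed against Scrambled, with CA2 shRNA, Scrambled and Control from left to right, a marker shape per replicate number and a bar at the group mean. In SNHG14, SNHG7, MIR1915HG, MIR4435-2HG, MIRLET7IHG and MIR924HG all CA2 shRNA points are below the 6 others.

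Hosts whose libraries did not overlap were counted without regard to the test. Against Scrambled, 14 of 63 hosts had all CA2 shRNA libraries below all Scrambled ones (17.2% of all genes did) and 2 had them above (15.2%). Against Control, the counts were 7 below (17.2% of all genes) and 2 above (15.8%). The CA2 shRNA libraries lay below all 6 others in 6 hosts, where 11.9% of all genes did, and above all 6 in 1, where 11.7% did. That host, MIR222HG, had 4.74, 4.34 and 4.20 CPM in CA2 shRNA libraries, against 3.38, 2.14 and 3.52 CPM in Scrambled libraries and 4.12, 2.68 and 1.97 CPM in Control libraries. Its log2 fold changes of 0.56 (SE 0.24, adjusted p = 0.140, edgeR) and 0.62 (SE 0.24, adjusted p = 0.114, edgeR) did not pass. It passed in both comparisons when low-count genes were kept in the fit, and against Control when Control 1 or Scrambled 2 was left out. MIR137HG, at 1.95, 2.59 and 2.71 CPM in CA2 shRNA, 1.95, 1.55 and 1.25 CPM in Scrambled libraries and 2.02, 2.10 and 1.70 CPM in Control libraries, passed as higher against Scrambled when Scrambled 1 or CA2 shRNA 1 was left out, and not otherwise (log2 fold change 0.63, SE 0.23, adjusted p = 0.0705, edgeR). MIR222HG, MIR137HG, MIR503HG and the other hosts named outside the stated rule were picked after their values were seen.

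Scrambled against Control asks whether the 2 sets of cells without the CA2 hairpin differ. No host passed, and 0 of all 19812 genes did in this edgeR fit. At an unadjusted p under 0.05 there were 0 hosts and 550 genes, and DESeq2 called 1 gene and 0 hosts. The hosts' median log2 fold change was 0.10, against 0.00169 over all genes and 0.125 over the other long noncoding genes. Scrambled libraries were all above the Control libraries in 4 hosts (3.66% of all genes were) and all below in 0 (3.14% of all genes were).

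Some hosts varied widely within the Scrambled and Control groups. MIRLET7BHG had 54.9, 44.8 and 52.0 CPM in CA2 shRNA libraries, against 66.4, 40.6 and 66.0 CPM in Scrambled libraries and 67.6, 50.3 and 35.4 CPM in Control libraries. MIR23AHG, the host of the miR-23a, miR-27a and miR-24 cluster, had 47.9, 37.3 and 38.5 CPM in CA2 shRNA libraries, against 53.9, 29.5 and 48.6 CPM in Scrambled libraries and 49.5, 37.9 and 25.8 CPM in Control libraries. In both, Scrambled 2 and Control 3 were the lowest of all 9 libraries. MIR503HG, at 6.74, 4.22 and 5.34 CPM in CA2 shRNA, 7.95, 3.32 and 8.02 CPM in Scrambled libraries and 7.56, 6.49 and 3.84 CPM in Control libraries, and the snoRNA host SNHG17, at 81.6, 74.0 and 71.8 CPM in CA2 shRNA, 86.7, 57.8 and 80.0 CPM in Scrambled libraries and 90, 67.5 and 53.8 CPM in Control libraries, had the same order. These are the libraries with the lowest NEAT1 and with 4.08% (Scrambled 2) and 4.06% (Control 3) mitochondrial counts, against 5.55% to 6.86% in the other 7.

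Scrambled 2 and Control 3 were the lowest pair of the 6 libraries of those groups in 24 of 63 hosts (38.1%), 12 of 26 snoRNA hosts and 12 of 37 microRNA hosts, against 14.4% of all genes and 20.7% of the other long noncoding genes. They were the highest pair in 1 host, MIR4733HG, against 13.4% of all genes. The pair was known from earlier results of these data, and what it shares beyond these values was not tested. Without both libraries, 11 of 63 hosts (17.5%) were lower against Scrambled, with MIRLET7BHG, MIR503HG, MIR34AHG, SNHG3, SNHG4 and SNHG26 added and MIR600HG and MIR924HG lost, where 9.43% of all genes were lower in the same fit. In every host added there, Scrambled 2 and Control 3 were the lowest pair of the 6. Leaving them out raises the reference of such hosts by itself, so the larger count is no independent result. Against Control, 5 of 63 (7.94%) were lower, with MIR924HG and SNHG26 added, where 7.32% of all genes were. SNHG14, MIR1915HG and SNHG7 passed in both comparisons without them.

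**Figure D4:**
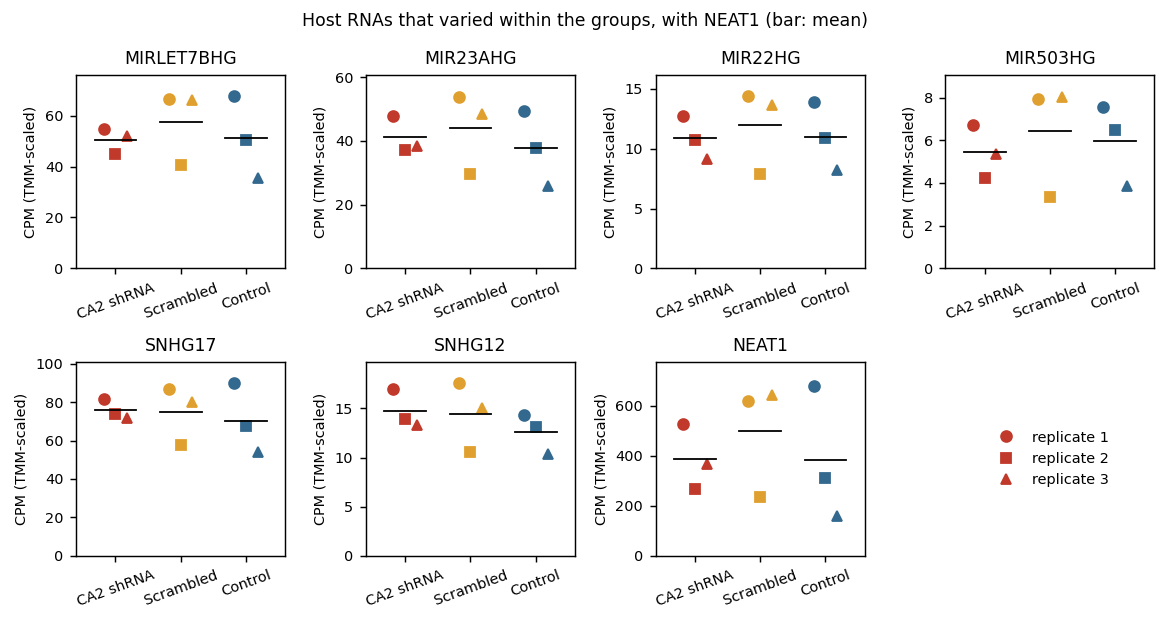
TMM-scaled CPM (vertical axis from 0) in each library for 6 hosts that varied within groups, and for NEAT1, with CA2 shRNA, Scrambled and Control from left to right, a marker shape per replicate number and a bar at the group mean. Scrambled 2 (middle square) and Control 3 (right triangle) are the lowest of the Scrambled and Control points in every panel, at 233 and 159 CPM for NEAT1.

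The small RNA genes inside the hosts have rows of their own, 286 in all in 110 hosts. No read was assigned in any library to the 119 rows that lie within an exon of their host, 47 of microRNAs and 72 of snoRNAs. Of the 150 rows within an intron, 61 had counts, 41 of 81 microRNA rows and 20 of 69 snoRNA rows, with 6347 reads in all. Of the 17 rows across an exon edge, 2 had counts, 5 reads in all. The sources used here do not say how reads over both a small RNA gene and a host exon were assigned, so a 0 in an exonic row is no measure of the small RNA.

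SNORA73B, a snoRNA of SNHG3 that acts in ribosomal RNA processing (chr1:28508559-28508762, plus strand), took 4765 of the intronic reads. It had 405, 400 and 588 counts in CA2 shRNA libraries, 624, 461 and 619 in Scrambled and 389, 442 and 837 in Control libraries. Scaled to library size these are 20.2, 24.1 and 21.5 CPM in CA2 shRNA, 27.7, 17.0 and 20.9 CPM in Scrambled libraries and 16.3, 21.6 and 24.6 CPM in Control libraries, which overlap. Its host SNHG3 had 34.2, 27.6 and 31.0 CPM in CA2 shRNA libraries, against 38.2, 27.0 and 38.6 CPM in Scrambled libraries and 36.2, 29.6 and 24.8 CPM in Control libraries. Only 4 more rows passed the filter, SNORA71B in SNHG17, MIR3619 in MIRLET7BHG, SNORD104 in SNHG25 and SNORA74A in SNHG4, and none of the 5 passed the test in any comparison. SNHG14 holds 84 snoRNA rows, 36 within an annotated exon, 3 across an exon edge and 45 within an intron. Counts were found in 4 of the 45 intronic rows, 35 reads in all 9 libraries, and in none of the others. Within introns, reads of unspliced host RNA and of the small RNA cannot be told apart.

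**Figure D5:**
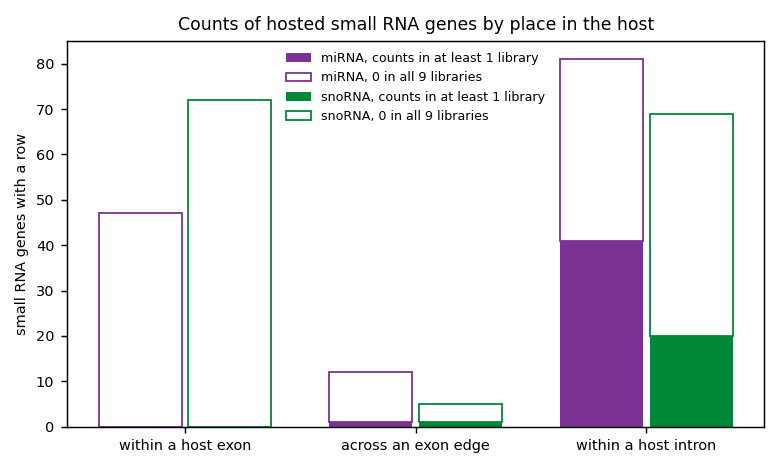
Number of small RNA genes with a row (vertical axis) by their place in the host, with filled parts for rows with counts in at least 1 library and open parts for rows at 0 in all 9, for microRNAs and snoRNAs. None of the 119 exonic rows has counts, against 61 of 150 intronic rows. Exonic means within any annotated exon of the host, which may be an intron of the spliced host.

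Genes that work on the same small RNAs changed in both directions. Of 20 proteins of snoRNA particles and their assembly, 2 were higher and 1 lower against Scrambled, and 1 and 1 against Control. NOLC1, a chaperone of these particles in the nucleolus, averaged 231 ± 9.18 CPM in CA2 shRNA, 203 ± 7.10 in Scrambled and 206 ± 7.12 in Control libraries (SD, n = 3 each). SHQ1, an assembly factor for the H/ACA class, averaged 13.4 ± 0.391, 17.3 ± 1.54 and 16.8 ± 0.415 CPM in the same order. Both passed in both comparisons, with log2 fold changes of 0.19 and 0.17 for NOLC1 and -0.37 and -0.33 for SHQ1. The list's median log2 fold change was 0.07 against Scrambled and 0.08 against Control.

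Of 21 microRNA processing genes tested, 5 were higher and 1 lower in each comparison. DICER1, which cuts the hairpin to the mature microRNA, averaged 107 ± 5.77 CPM in CA2 shRNA, 79.1 ± 9.77 in Scrambled and 77.3 ± 8.89 in Control libraries (SD, n = 3 each), a log2 fold change of 0.43 (adjusted p = 0.00601, edgeR) and 0.47 (adjusted p = 0.00380, edgeR). TARBP2, a Dicer partner, and TNRC6A, a scaffold of silencing, were higher against Scrambled, each with a log2 fold change of 0.35. TNRC6B, a close relative of TNRC6A, was lower, with -0.69 (adjusted p = 3.35e-05, edgeR). The list's median was 0.07 against Scrambled and 0.09 against Control.

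Of 20 genes of nonsense-mediated decay, 4 were higher and 2 lower against Scrambled, and 3 and 3 against Control, with medians of 0.02 and 0.05. DCP2, the decapping enzyme, averaged 61.2 ± 5.47 CPM in CA2 shRNA, 33.6 ± 5.09 in Scrambled and 36.6 ± 0.944 in Control libraries (SD, n = 3 each), a log2 fold change of 0.86 (adjusted p = 1.11e-05, edgeR) and 0.74 (adjusted p = 4.83e-05, edgeR). PNRC2, which links decay to decapping, was lower in both, with -0.48 and -0.54. UPF1, the helicase at the centre of this decay, was lower in both, with -0.17 (adjusted p = 0.0319, edgeR) and -0.18 (adjusted p = 0.0240, edgeR).

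Hosts of other kinds were set beside them. Of 39 protein-coding snoRNA hosts, 3 were higher and 3 lower against Scrambled, and 2 and 3 against Control, with medians of 0.05 and 0.07. NPM1, a nucleolar chaperone, averaged 477 ± 7.86 CPM in CA2 shRNA, 704 ± 45.8 in Scrambled and 732 ± 20.4 in Control libraries (SD, n = 3 each), a log2 fold change of -0.56 and -0.62, and HSPA9, a mitochondrial chaperone, was higher in both, with 0.27 and 0.24. Of 28 protein-coding microRNA hosts, 3 were higher and 6 lower against Scrambled, and 4 and 5 against Control, with medians of -0.04 and -0.09. LPP, a focal adhesion protein and host of miR-28, averaged 64.9 ± 5.57 CPM in CA2 shRNA, 199.6 ± 45.9 in Scrambled and 200.5 ± 12.9 in Control libraries (SD, n = 3 each), a log2 fold change of -1.62 in each comparison (adjusted p = 0.000342 and 0.000338, edgeR). IGF2, a growth factor and host of miR-483, was lower in both, with -0.36 and -0.49. Of 9 further noncoding hosts tested, CYTOR was lower against Scrambled and DLEU2, the host of miR-15a and miR-16-1, against Control (log2 fold change -0.54, adjusted p = 0.0456, edgeR). These lists were tested over all genes, and the share of genes called in them is to be read against 16.9% and 14.7% of all genes.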

How the data were processed

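Each of the 9 libraries had 1 deposited table of 60671 genes with the read count, CPM and RPKM of each gene, per the file headers. The counts are whole numbers deposited without normalization, the deposited CPM scales them to the same total in each library, and the deposited RPKM divides it by exon length in kilobases. The tools named in the submitters' processing notes are STAR 2.5.1a, featureCounts 1.4.6-p5 (Subread) and bcl2fastq, with the build GRCh38. Annotation release, strand setting and the rule for reads from repeated or overlapping genes: not given in the sources used here. The labels' protocols name an RNeasy kit and FastSelect, a reagent that keeps ribosomal RNA out of libraries. Symbols for 60401 genes came from a reference table and for 246 more from GENCODE 29, which also gave gene types. Exon coordinates and lengths were those of the deposited tables.

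Genes were kept with filterByExpr (19812 left), scaled with TMM and tested on the deposited counts with edgeR 4.0.16 (glmQLFit robust, glmQLFTest, R 4.3.3) in 1 model with a term per group and 6 residual degrees of freedom. P-values were Benjamini-Hochberg adjusted over all genes tested, with a threshold of 0.05 and no fold limit. Intervals are 95% intervals from the fit's SE and degrees of freedom. Printed CPM are TMM-scaled, and RPKM are as deposited. With 3 libraries a group, exact permutation p-values are at least 0.10, so none is given. The procedure was tested on simulated counts with known changes: it recovered only part of them, fewer of the smaller ones, and its false calls were a larger share of all calls than the nominal rate. Within groups the chi-square per gene between libraries was at least 4.64, so none was a duplicate. The 3 comparisons share libraries.

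Alternatives were other scalings, other filters, DESeq2 1.42.0, only the groups compared, the replicate number as a block, each library left out, and Control 3 and Scrambled 2 left out together. Named hosts are those past the threshold, the 6 highest of each family by mean RPKM and those with at least 3 small RNA genes; from each list, up to 4 genes past the threshold with the largest change. The members and lists were chosen with earlier results of these data known.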

Additional observations from a re-analysis of the deposited data

How the results depend on the processing

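Against Scrambled, hosts called lower numbered 7 (11.1%, against 8.88% of all genes), and between 5 and 9 with other scalings, filters, DESeq2 or only the groups compared. The 5 came with DESeq2 (8.93%, against 8.67% of all genes) and the 9 with no filter (8.65%, against 4.26%). Without Control 3 and Scrambled 2 together there were 11 (17.5%, against 9.43%). Leaving out 1 library gave 2 to 9, with 2 without Scrambled 3 (3.12%, against 5.90% of all genes). There were 3 without CA2 shRNA 1 (4.62%, against 5.44%) and 4 without CA2 shRNA 2 (6.15%, against 6.64%). The 9 came without Control 3 (14.1%, against 8.42%). Hosts called higher numbered 0 (8.02% of all genes were), 1 with no filter (4.06% of all genes), and 0 to 1 with 1 library left out. The 1 came without Scrambled 1 (6.41% of all genes) or CA2 shRNA 1 (7.40%). Against Control, hosts called lower numbered 3 (4.76%, against 8.26% of all genes), and 5 without Control 3 and Scrambled 2 together (7.94%, against 7.32%). With 1 library left out they numbered 2 to 5, the 5 without Control 3 (7.81%, against 6.21%). Hosts called higher against Control numbered 0 (6.41% of all genes were), 1 with no filter (3% of all genes), and 0 to 2 with 1 library left out. The 2 came without Control 1 (4.36% of all genes). In both comparisons the count was 3, 5 with no filter, and 2 to 5 with 1 library left out. With all libraries, 6.98% of all genes were lower in both and 5.49% higher in both. Over all genes, 3348 were called against Scrambled (2059 to 4011 with 1 library left out, 2059 without Scrambled 3), 2906 against Control (1962 to 3662), and 0 in Scrambled against Control (0 to 1), with 7 with no filter and 1 with DESeq2. Of the 1296 alternatives to the 72 fold changes of named hosts, 30 ended a call, 6 made one and 0 reversed one. The causes of these differences were not tested. No pairing by replicate number was seen: deviations of libraries with the same number from their group means correlated between -0.185 and 0.105. With 3 libraries a group, this cannot exclude that libraries with the same number were prepared together. With the replicate block, 6 hosts were lower against Scrambled (9.52%, against 9% of all genes), with MIR924HG lost (adjusted p = 0.0635, edgeR). Against Control 3 were (4.76%, against 8.31%). The 51 hosts left out of the test had too few counts at this depth, and low depth and absent expression cannot be told apart for them.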
